A study of Sus scrofa with 34 samples.

Results

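The genes described here are 10 pig genes of the major histocompatibility complex (MHC) and of antigen presentation: the class I chains SLA-1, SLA-2 and SLA-3, the class II chains SLA-DRA and SLA-DQA1, B2M, TAP1, TAP2, CD74 and CIITA. They were chosen by gene symbol, and 5 of the 10 were found among the 25880 genes of the count tables. TAP1 (ENSSSCG00000025618), TAP2 (ENSSSCG00000025593), CD74 (ENSSSCG00000033262) and CIITA (ENSSSCG00000007901) were matched by their own symbol, and SLA-DRA (ENSSSCG00000001453) by the symbol of its human counterpart. SLA-1, SLA-2, SLA-3, SLA-DQA1 and B2M were not analysed here, since no row could be assigned to them by name. The class I molecule itself was therefore not measured, and class I is represented by its peptide transporter alone.

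RNA was sequenced from 10 ilea (5 Control and 5 PFA) and 24 livers of weaned crossbred piglets, with 6 livers in each of the diets Control, PFA, OO and OO + PFA. Control piglets (Landrace x Large White sows, Pietrain boars, about a month old at the start) ate a basal diet with fresh rapeseed oil for 28 days. PFA piglets ate it with a phytogenic feed additive, a blend whose main ingredients include oregano oil, caraway oil, carvacrol and menthol. OO piglets ate it with rapeseed oil oxidized by heating, and OO + PFA piglets had both the oxidized oil and the additive. The oxidized oil came on top of the small share of fresh oil, with the other ingredients reduced and the calculated energy higher. Effects of oxidation therefore cannot be told apart from those of added fat and energy. The liver was also sequenced in all 10 pigs with an ileum library. The pigs of a diet shared 1 pen, and effects of the pen cannot be told apart from those of the diet.

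Class I molecules carry peptides from the cytosol to the surface of nearly every nucleated cell, where CD8+ T cells read them. The immunoproteasome cuts these peptides, and the transporter formed by TAP1 and TAP2 moves them into the endoplasmic reticulum, where the class I chain and beta-2 microglobulin (B2M) take them up. Class II molecules, here represented by the alpha chain SLA-DRA, present peptides from endosomes to CD4+ T cells and are found mainly on dendritic cells, macrophages and B cells, and in the gut also on enterocytes. CD74, the invariant chain, guides class II molecules to the endosome, and CIITA, the class II transactivator, binds no DNA itself but acts through the factors RFX and NF-Y on the promoters of class II genes and CD74.

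On Sscrofa11.1 (RefSeq annotation), the 2 transporter genes and SLA-DRA lie in the MHC on chromosome 7, with SLA-DRA at 24825037 to 24830650 on the plus strand, TAP2 at 25045085 to 25056915 and TAP1 at 25062772 to 25071989, both on the minus strand. CD74 lies outside the MHC at 151402210 to 151409924 on the minus strand of chromosome 2, and CIITA at 32171706 to 32230775 on the minus strand of chromosome 3. The 3′ end of CIITA shares 636 exonic bases with DEXI on the opposite strand. The libraries were stranded, but the strand option of the counting is not given in the sources used here, so reads from that stretch cannot be assigned to either gene.

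The upstream sequence of SLA-DRA, TAP1 and CD74 is shown because RFX5, a subunit of RFX, was one of the few genes of the pathway called in the liver, and because RFX and NF-Y bind short boxes of this kind. Each line holds the 250 bases before the outermost RefSeq start, 5′ to 3′ on the strand of the gene, with matches to 4 motifs in capitals. The motifs, searched on both strands, were the core of the X box (GNNACNGAT), the Y box (CCAAT, or ATTGG on the other strand), the element of interferon regulatory factors (GAAANNGAA, or its reverse complement) and the interferon-gamma activated site (TTCNNNGAA). The positions are chr7:24824787-24825036 for SLA-DRA, chr7:25071990-25072239 for TAP1 and chr2:151409925-151410174 for CD74.
SLA-DRA: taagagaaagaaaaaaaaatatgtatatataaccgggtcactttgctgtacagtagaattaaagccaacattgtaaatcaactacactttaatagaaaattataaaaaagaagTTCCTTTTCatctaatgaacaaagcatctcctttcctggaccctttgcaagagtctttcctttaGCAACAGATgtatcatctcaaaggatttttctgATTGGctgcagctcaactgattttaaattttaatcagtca
TAP1: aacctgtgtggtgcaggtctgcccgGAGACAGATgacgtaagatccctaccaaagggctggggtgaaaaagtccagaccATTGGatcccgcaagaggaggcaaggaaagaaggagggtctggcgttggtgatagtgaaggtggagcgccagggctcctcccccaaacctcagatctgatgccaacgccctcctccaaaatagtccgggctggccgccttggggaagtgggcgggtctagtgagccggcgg
CD74: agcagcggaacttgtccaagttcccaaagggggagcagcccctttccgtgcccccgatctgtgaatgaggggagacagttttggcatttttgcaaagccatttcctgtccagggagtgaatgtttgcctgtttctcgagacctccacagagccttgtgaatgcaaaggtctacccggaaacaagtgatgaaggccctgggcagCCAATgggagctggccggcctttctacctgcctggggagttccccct
The SLA-DRA window held an X box core at position -73 and a Y box at position -40 from the start, and an interferon regulatory factor element at -137. The TAP1 window held an X box core at -225 and a Y box at -171, and the CD74 window held a Y box at -47. PSMB9 starts inside the TAP1 window, at 25072133 on the plus strand, and runs away from TAP1. Both matches of the TAP1 window therefore lie within the annotated PSMB9 gene. No match was found in the windows of TAP2 and CIITA. Of 19547 upstream windows of the same length of protein-coding genes, 5.37% held the X box core, 31.9% the Y box, 6.7% the interferon regulatory factor element and 6.11% the interferon-gamma activated site. No match overlapped another in these windows.

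Between 18738055 and 42446834 read pairs per library were counted on genes, so that every member was counted at least 88 times in each of the 34 libraries. Hepatocyte markers were lower in the ileum than in the liver for 8 of 8 genes, with CYP2E1, SERPINA1 and TTR at 3 counts or fewer in every ileum library, and 7 of 8 markers of the ileum epithelium were higher in the ileum. One liver library, OO + PFA pig 77, stood apart, with 48.3% of its read pairs on 10 genes against 23.8 to 34.8% in the other livers. It was left out of the liver fit, as in the study. Expression is given as CPM, the read count relative to the TMM-scaled size of the library, and a gene counts as called where its adjusted p was 0.05 or less. The tests measure the spread among pen mates.

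Levels per kilobase of exon allow a rough comparison between genes. The counts are on Ensembl genes, whereas the length joins all RefSeq exons of a gene, for CIITA with the stretch shared with DEXI. In the ileum SLA-DRA was the most abundant member, with 546 ± 68.2 CPM per kb (SD, n = 10), followed by CD74 with 248 ± 116, TAP1 with 150 ± 30.0, TAP2 with 47.9 ± 11.4 and CIITA with 2.55 ± 0.84. SLA-DRA exceeded CD74, and CD74 exceeded TAP1, in 10 of 10 ileum libraries, although the ranges of CD74 (122 to 468) and TAP1 (103 to 187) overlapped. In the liver CD74 ranged from 55.5 to 335 CPM per kb and SLA-DRA from 49.9 to 196, and these neighbours did not differ beyond their spread, with CD74 the higher in 14 of 23 libraries. TAP1 followed with 8.15 ± 2.08 (SD, n = 23), TAP2 with 6.21 ± 1.86 and CIITA with 0.766 ± 0.224. TAP1 exceeded TAP2 in 19 of 23 livers, and their ranges overlapped.

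**Figure D1:**
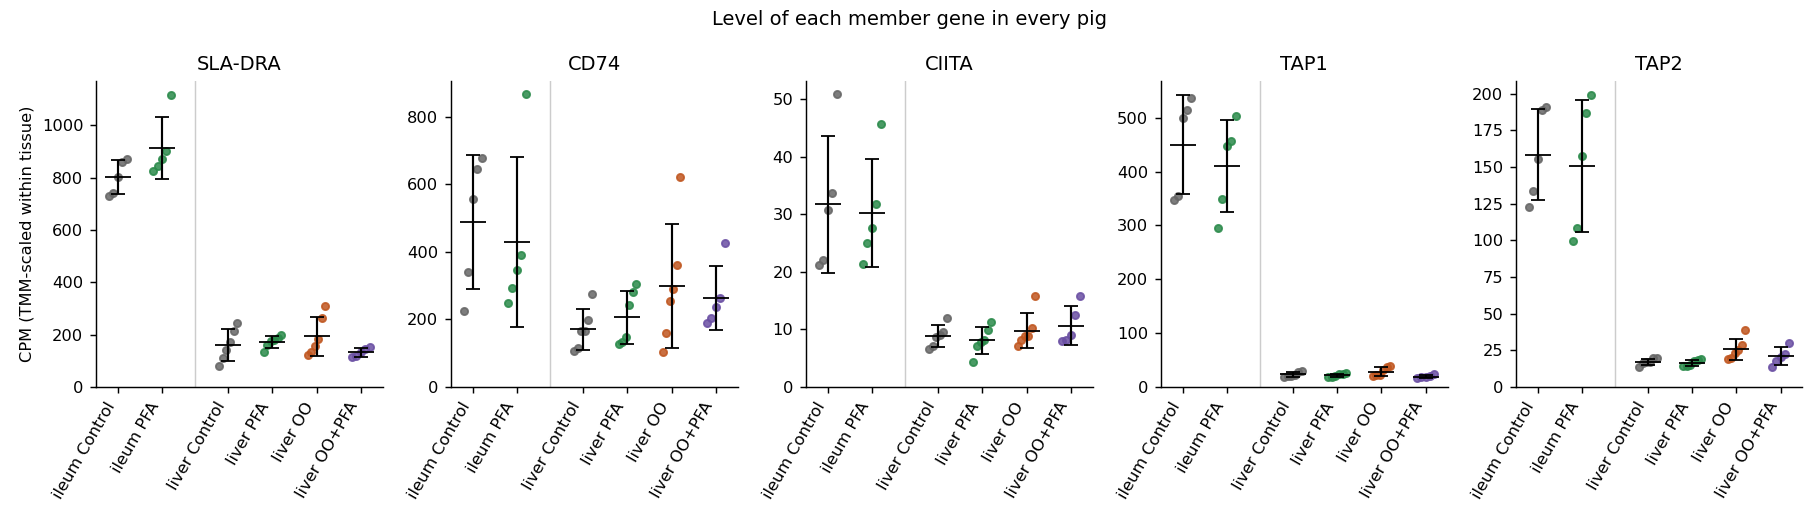
CPM of each member gene (vertical axis, linear, from 0) in every ileum and liver library by diet, with points for pigs and black bars for the mean and SD. TAP1 and TAP2 are several fold higher in the ileum than in the liver, whereas the diets overlap within each tissue in nearly all panels; levels were scaled within each tissue.

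The first comparison asked whether the additive changed the ileum of unchallenged piglets. None of the 5 members was called between PFA and Control, against 0.0% of 14300 genes tested (0 genes; 401 had an unadjusted p under 0.05, and DESeq2 called 4). The members' log2 differences had a median of -0.07, beside 0.02 over all genes, and 4 of 5 were lower with PFA.

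SLA-DRA was the member with the least spread. Control pigs 71, 80, 92, 100 and 110 had 804, 861, 742, 871 and 731 CPM, and PFA pigs 75, 95, 107, 134 and 138 had 902, 826, 1117, 872 and 844 CPM. PFA pig 107 was far above the others, and the groups overlapped. The log2 difference was 0.19 ± 0.11 (SE), with a 95% interval from -0.04 to 0.41 and an adjusted p of 0.991 by edgeR's quasi-likelihood test.

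CD74, the partner of the class II chains, varied much more. Control pigs 71, 80, 92, 100 and 110 had 679, 646, 340, 558 and 226 CPM, and PFA pigs 75, 95, 107, 134 and 138 had 294, 346, 390, 868 and 249 CPM. PFA pig 134 was the highest of all 10, and the other 4 PFA pigs lay within the range of the Control pigs. The log2 difference was -0.19 ± 0.38, with a 95% interval from -0.93 to 0.55, and it lay between -0.62 (without PFA pig 134) and -0.043 (without Control pig 71) when 1 pig was left out. CIITA ranged from 21.2 to 50.8 CPM in the Control pigs and from 21.4 to 45.6 in the PFA pigs, again with PFA pig 134 as the highest of its group, and Control pig 80 as the highest of all. Its log2 difference was -0.07 ± 0.26.

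The 2 transporter genes overlapped between the diets. TAP1 ranged from 347 to 536 CPM in the Control pigs and from 295 to 504 in the PFA pigs, with a log2 difference of -0.13 ± 0.18. TAP2 ranged from 123 to 191 CPM and from 99.7 to 199, with a log2 difference of -0.07 ± 0.21. The 95% intervals, -0.48 to 0.22 for TAP1 and -0.48 to 0.34 for TAP2, include 0.

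Around the members, none of the 55 pathway genes tested was called in the ileum, and 29 of them were lower with PFA. The smallest p-values belonged to CANX and PDIA3, chaperones of the class I loading complex (log2 differences 0.29 ± 0.13 and 0.24 ± 0.12), CTSL, an endosomal protease (0.53 ± 0.26), SLA-DRA, and CCR7, the homing receptor of mature dendritic cells and lymphocytes (-1.49 ± 0.77), each with an adjusted p of 0.991. B cells carry class II molecules, and the 7 B cell markers tested were all lower with PFA (median log2 difference -2.45, none called). Their summed level was 680 CPM in Control pig 80 and between 17.2 and 30.1 CPM in the other 9 pigs, which overlapped between the diets. SLA-DRA in pig 80 (861 CPM) was within the range of the other pigs, whereas its CIITA level was the highest. The part of B cells in these levels was not tested. In bulk samples, fewer cells of a type and less RNA per cell cannot be told apart.

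In the liver, the study set oxidized oil as a model of oxidative stress and asked whether the additive changed the response. Across the 4 diets none of the 5 members was called, where 3.66% of 13831 genes were. TAP2 came nearest with an adjusted p of 0.0666, followed by TAP1 with 0.141, CD74 with 0.303, SLA-DRA with 0.396 and CIITA with 0.556. For TAP2 the call depended on the fit: the adjusted p was 0.0256 with DESeq2 and 0.0431 with all 24 liver libraries.

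Oxidized oil alone gave higher values than Control for all 5 members, none of them called, where 2.71% of genes were called. Their median log2 difference was 0.29, beside 0.06 over all genes. In TAP2, 6 Control livers ranged from 13.8 to 19.5 CPM (median 17.1) and 6 OO livers from 19.2 to 38.8 CPM (median 24.2). Only OO pig 97, at 19.2 CPM, lay within the Control range, and OO pig 130 was the highest of all livers. Of the livers kept, pig 130 had the fewest read pairs on genes, 19839171. It also had the most pairs with several alignments, 14.7 per 100 counted on genes, and the part of this in its values was not tested. The log2 difference of TAP2 was 0.59 ± 0.17, with a 95% interval from 0.24 to 0.93 and an adjusted p of 0.0667 by edgeR. The liver libraries have 2 forms of title, PL and PigLiv, and the difference was 0.54 in the PL libraries alone and 0.56 in the PigLiv libraries alone, with no call in either. TAP2 passed the threshold with DESeq2 (adjusted p = 0.0366) and in 3 of 23 fits that left out 1 pig, among them the fit without OO pig 97 (log2 difference 0.66, adjusted p = 0.0263 by edgeR).

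CD74 ranged from 106 to 274 CPM (median 166) in the Control livers and from 103 to 622 (median 273) in the OO livers. OO pig 99 was far above the others, 3 of the 6 OO pigs lay above the Control range, and OO pig 97 was the lowest of both groups. The log2 difference was 0.80 ± 0.34 (adjusted p = 0.177), and it was 0.33 in the PL libraries, 1.13 in the PigLiv libraries, 0.45 without OO pig 99 and 0.36 with a correction for GC content. SLA-DRA ranged from 78.2 to 243 CPM (median 156) in the Control livers and from 120 to 308 (median 169) in the OO livers, with a log2 difference of 0.28 ± 0.24. It was 0.10 without OO pig 99, 0.44 without Control pig 92 and 0.69 in the PL libraries. TAP1 ranged from 18.7 to 29.6 CPM (median 21.9) and from 20.8 to 39.5 (median 26.3), with a log2 difference of 0.29 ± 0.17. CIITA differed least, with 6.53 to 11.98 CPM (median 8.88) against 7.06 to 15.8 (median 8.87) and a log2 difference of 0.15 ± 0.23. These groups overlapped in all 4 genes.

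Markers of macrophages and monocytes, which in the liver include Kupffer cells and carry class II molecules, were higher in OO than in Control livers for 10 of 10 genes, none called, with a median log2 difference of 0.50. Of all genes, 57.7% were higher. These markers were also higher than in Control for 9 of 10 genes in PFA livers (median 0.26) and in OO + PFA livers (median 0.31), none called. Their summed level ranged from 535 to 1468 CPM in the Control livers and from 1030 to 1921 in the OO livers. The part of these cells in the values of the members was not tested. T cell markers were higher for 7 of 8 genes, with a median of 0.25 and none called. Hepatocyte markers were lower for 5 of 8 genes, with a median of -0.20, and 2 of them, SERPINA1 and CYP2E1, were called lower; these 2 were named after their values were seen.

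The called genes of the pathway in this comparison were not members. Of 54 pathway genes tested, 4 rose and 1 fell, against 1.37% of all genes called higher and 1.34% called lower. The 3 subunits that distinguish the immunoproteasome, PSMB8, PSMB9 and PSMB10, all rose, and so did CTSB, the lysosomal protease cathepsin B, whereas RFX5 fell.

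PSMB9 ranged from 7.76 to 17.4 CPM (median 10.9) in the Control livers and from 10.3 to 34.8 (median 20) in the OO livers, and the groups overlapped. Its log2 difference was 0.89 ± 0.24 (adjusted p = 0.0456). PSMB8 went from a median of 22.6 to 38.6 CPM (log2 difference 0.70 ± 0.19, adjusted p = 0.0474) and PSMB10 from 24.5 to 46.1 CPM (0.83 ± 0.21, adjusted p = 0.0362). All 3 calls were close to the threshold. With 1 pig left out at a time, PSMB8 was called in 5 of 23 fits, PSMB9 in 7 and PSMB10 in 16, and with the 2 diets fitted alone none was (adjusted p = 0.142, 0.137 and 0.136 by edgeR). In the PL libraries PSMB10 differed by 0.21 and in the PigLiv libraries by 1.24 on the log2 scale.

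RFX5 and CTSB were called in 23 of 23 such fits. RFX5 ranged from 18.0 to 25.3 CPM (median 20.4) in the Control livers and from 13.01 to 17.2 (median 14.1) in the OO livers, with no overlap. It fell by 0.53 ± 0.11 on the log2 scale (adjusted p = 0.00725). CTSB ranged from 544 to 795 CPM (median 693) and from 855 to 1274 (median 1036), also without overlap, and rose by 0.64 ± 0.12 (adjusted p = 0.00594). In the PL and PigLiv libraries alone RFX5 had log2 differences of -0.44 and -0.57, and CTSB of 0.91 and 0.49, none of them called. Of the other class II chains, whose promoters RFX binds, none was called: SLA-DQB1, SLA-DMA, SLA-DMB and SLA-DOA had log2 differences between 0.25 and 0.46, and SLA-DOB had -0.17.

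**Figure D2:**
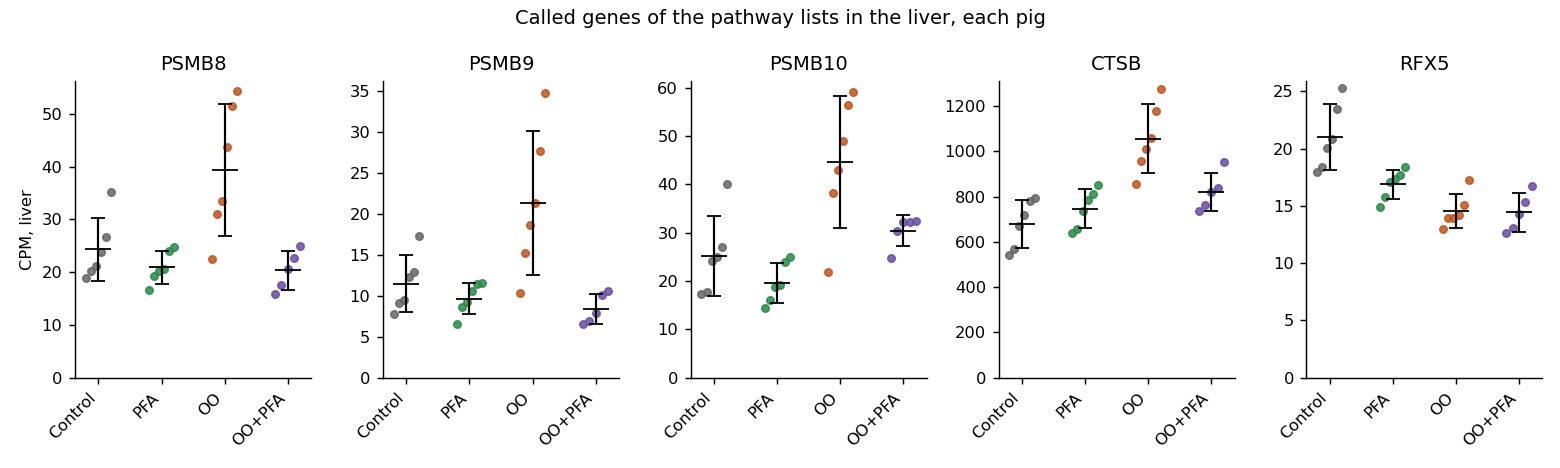
CPM (vertical axis, linear, from 0) of the 5 pathway genes that were called in the liver, in every pig by diet, with points for pigs and black bars for the mean and SD. The OO pigs are the highest group for PSMB8, PSMB9, PSMB10 and CTSB, and for RFX5 the OO and OO + PFA pigs sit below every Control pig. The PFA pigs lie from 14.9 to 18.4 CPM for RFX5, against 18.0 to 25.3 CPM in the Control pigs.

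For the additive without oil none of the members was called in the liver, where 0.0% of genes were called (0 genes; 1522 had an unadjusted p under 0.05, and DESeq2 called 43). The 5 log2 differences lay between -0.12 and 0.27. SLA-DRA ranged from 135 to 198 CPM (median 177) in the PFA livers, inside the Control range, and its log2 difference was 0.11 ± 0.24, with 0.91 in the PL libraries and -0.22 in the PigLiv libraries. The largest difference was again that of CD74, 0.27 ± 0.34, with 126.3 to 304 CPM (median 196) in the PFA livers. None of the pathway genes was called either. RFX5, which fell with oil, ranged from 14.9 to 18.4 CPM (median 17.2) in the PFA livers, against 18.0 to 25.3 (median 20.4) in the Control livers.

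With oil, the additive gave lower values for 4 of the 5 members than oil alone, none of them called, and 0.0% of genes were called (0 genes; 1176 had an unadjusted p under 0.05, and DESeq2 called 31). The 6 OO pigs are the same as in OO against Control, so the differences of these comparisons are not independent. The members' median was -0.30, beside -0.02 over all genes. TAP1 had 16.5, 17.8, 18.2, 20 and 23.8 CPM in the 5 OO + PFA pigs, the last of them pig 79, against 20.8 to 39.5 in the 6 OO pigs. All but pig 79 lay below the lowest OO pig. The log2 difference was -0.56 ± 0.18, with a 95% interval from -0.91 to -0.22 and an adjusted p of 0.383.

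SLA-DRA had 114, 117, 133, 146 and 154 CPM in the OO + PFA pigs, against 120 to 308 in the OO pigs. The groups overlapped, and the log2 difference was -0.55 ± 0.25 (adjusted p = 0.575). TAP2 had 13.6, 17.7, 20.5, 22.8 and 30.2 CPM, with a log2 difference of -0.30 ± 0.18. Both groups overlapped, also for CD74, which had 189.5, 205, 238, 263 and 426 CPM and a log2 difference of -0.18 ± 0.36. CIITA had 7.95, 8.09, 8.94, 12.5 and 15.8 CPM, with a log2 difference of 0.12 ± 0.24. Pig 79 was the highest of its group for all 5 genes.

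Of 54 pathway genes 44 were lower in OO + PFA than in OO livers (median -0.21). All 14 genes of class I peptide loading (median -0.37, TAP1 and TAP2 among them) and all 7 class II chains (median -0.37, SLA-DRA and CD74 among them) were lower, whereas 46.5% of all genes were higher. Class II peptide processing had 4 genes higher and 5 lower (median -0.07), the regulators of MHC genes 3 and 6 (median -0.06), the interferon-gamma signal 2 and 7 (median -0.18) and costimulation 1 and 5 (median -0.14), and no gene of these lists was called. PSMB9 had the smallest adjusted p, 0.0942, with a log2 difference of -1.35 ± 0.26, and a range of 6.56 to 10.5 CPM in the OO + PFA livers. PSMB8 followed with -0.95 ± 0.20 and an adjusted p of 0.097. Both had been called higher in the same OO pigs against Control. ERAP2, which trims peptides for class I (-0.69 ± 0.19), and IRF1, an interferon-induced factor that acts on PSMB9 and TAP1 (-0.50 ± 0.14), were also among the 5 smallest p-values.

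T cell markers were lower in OO + PFA livers for 8 of 8 genes (median -0.65, none called). Their summed level ranged from 36.0 to 86.0 CPM in the OO livers and from 34.0 to 54.6 in the OO + PFA livers, and macrophage markers were lower for 6 of 10 genes (median -0.04). The part of T cells in these values was not tested. The difference between the effects of the additive with and without oil was tested as an interaction, and none of the 5 members was called, where 0.0% of genes were (0 genes; 1881 had an unadjusted p under 0.05, and DESeq2 called 150). It was -0.65 ± 0.34 for SLA-DRA and -0.47 ± 0.24 for TAP1 on the log2 scale, and between -0.44 and 0.24 for the other 3 members.

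Oil and additive together against Control, a comparison that shares the Control pigs with those above, gave log2 differences between -0.28 (TAP1) and 0.63 (CD74), none called, where 5.08% of genes were (4.09% higher and 0.991% lower). RFX5 was the pathway gene called here (-0.54 ± 0.11, adjusted p = 0.0121), with 12.7 to 16.8 CPM in the OO + PFA livers against 18.0 to 25.3 in the Control livers.

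**Figure D3:**
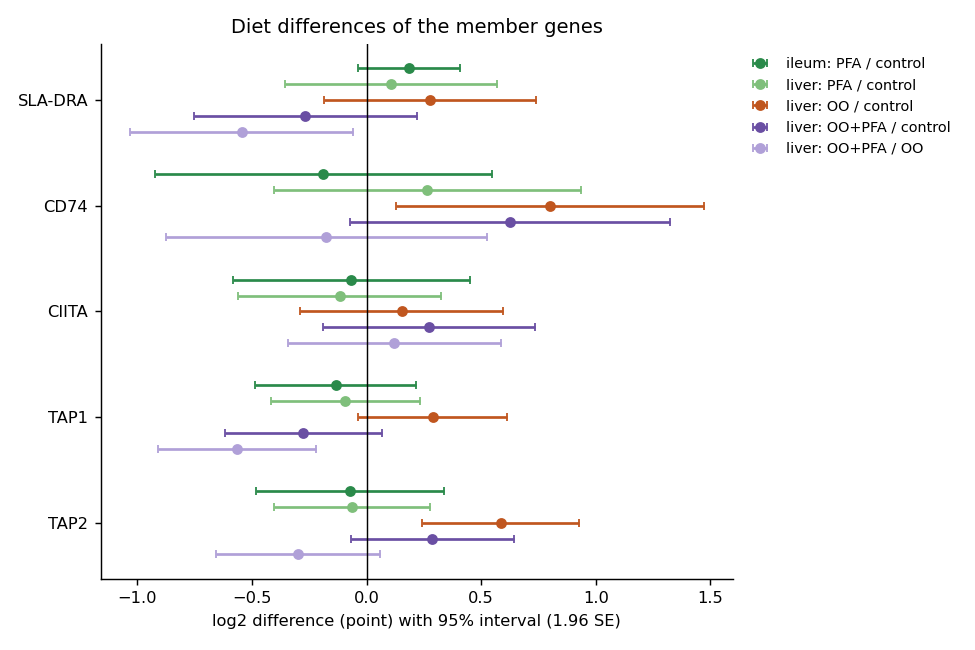
Log2 difference of each member (horizontal axis) for 5 diet comparisons, with points for the estimate and bars for its 95% interval. The intervals of TAP2 and CD74 for OO against Control and those of TAP1 and SLA-DRA for OO + PFA against OO leave out 0, and none of these was called after adjustment over all genes.

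Ileum and liver were compared in the 10 pigs that gave both. The study states a lower minimum of RNA integrity for the liver than for the ileum. Effects of RNA quality therefore cannot be told apart from those of the tissue. Of the 5 members, 4 were called higher in the ileum, where 40.7% of 14982 genes were called higher and 37.6% lower. As 78.2% of genes were called in one direction or the other, the call itself says little about the members. The members' median was 1.23 on the log2 scale, beside 0.05 over all genes.

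TAP1 showed the largest difference of the members. Scaled over both tissues, it ranged from 27.1 to 43.7 CPM (median 31.9) in the livers and from 199 to 366 (median 305) in the ilea of the same pigs, without overlap. The ratio of ileum to liver within a pig was between 5.38 and 12.7, and the log2 difference was 3.13 ± 0.13 (8.73-fold, adjusted p = 5.44e-11). TAP2, its partner in the same transporter, ranged from 20.1 to 28.1 CPM in the livers and from 67.5 to 136 in the ilea, with a log2 difference of 2.10 ± 0.12 (4.29-fold, adjusted p = 1.61e-09). Both were higher in the ileum of 10 of 10 pigs.

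SLA-DRA ranged from 114 to 359 CPM (median 259) in the livers and from 487 to 763 (median 578) in the ilea, with no overlap and a log2 difference of 1.23 ± 0.15 (2.34-fold, adjusted p = 6.26e-06). CIITA ranged from 6.57 to 17.7 CPM (median 12.5) and from 14.4 to 35.2 (median 19.8), was higher in the ileum of 8 of 10 pigs, and differed by 0.74 ± 0.20 (adjusted p = 0.0044). CD74 overlapped fully, with 156 to 442 CPM (median 263) in the livers and 150 to 581 (median 251) in the ilea. It was higher in the ileum of 6 of 10 pigs, and the log2 difference was 0.08 ± 0.21, with a 95% interval from -0.33 to 0.50 (adjusted p = 0.727). Within a pig the ratio of ileum to liver was 1.41 to 5.25 for SLA-DRA and 0.469 to 2.26 for CD74, whose products assemble with each other, and the difference between these ratios was not tested.

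**Figure D4:**
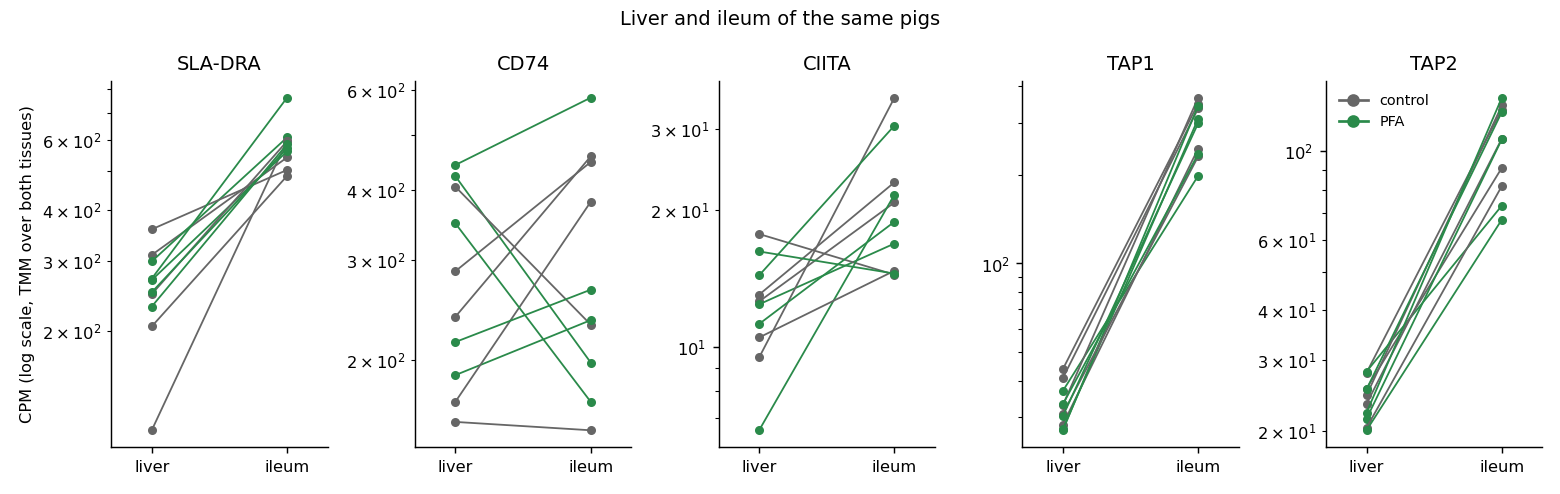
CPM (vertical axis, log scale, TMM over both tissues) of each member in the liver and ileum of the same 10 pigs, with a line for each pig, grey for Control and green for PFA. The lines of TAP1, TAP2 and SLA-DRA rise in all 10 pigs, those of CIITA in 8, and those of CD74 run both ways.

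Among the genes around the members, tissue differences ran both ways. Here a gene that rose or fell is one that was called. Of 55 pathway genes tested, 34 were called higher and 10 lower, where 40.7% of all genes were called higher and 37.6% lower. In both directions together 44 were called, a share near the 78.2% of all genes. Of 14 genes of class I peptide loading, 9 rose and 2 fell in the ileum, with the immunoproteasome subunits PSMB9 (2.25 ± 0.14), PSMB8 (2.11 ± 0.11) and PSMB10 (1.11 ± 0.16), the peptidases ERAP2 (2.64 ± 0.10) and ERAP1, TAPBPL and PSME2 higher, and the general chaperones CALR (-1.02 ± 0.13) and PDIA3 lower. Of 7 class II chains, 5 rose: SLA-DRA, SLA-DOB, SLA-DQB1, SLA-DOA and SLA-DMA. Class II peptide processing was split, with 3 genes higher (MR1, IFI30 and MARCHF1) and 5 lower, among them the lysosomal proteases CTSL (-2.93), LGMN (-2.73), CTSB (-2.08) and CTSH (-1.27), and FCGRT.

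Of 10 genes of the interferon-gamma signal, 7 rose in the ileum, among them IFNG (3.75), IFNGR1 (2.65) and IRF1 (2.12), and IRF2 fell. In the fit of the liver alone, 9 of these 10 genes passed the filter on low counts. Among the regulators of MHC genes 6 of 9 rose: NLRC5, the transactivator of class I genes (1.67), EZH2, CREB1, CIITA, RFX5 and NFYA, and 2 fell, RFXANK and NFYC. Of the costimulation genes CD274 (3.35), CD86, CD80 and CD40 rose. T cell markers were higher in the ileum for 8 of 8 genes (7 called, median 2.31), and macrophage markers were lower for 9 of 10 (9 called, median -1.34). The part of the mix of cells in the levels of the members was not tested.

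A difference between the 2 tissues in the effect of the additive was called for none of the 5 members, where 0.0% of genes were called (0 genes; 720 had an unadjusted p under 0.05, and DESeq2 called 3). The difference was largest for CD74, at -0.61 ± 0.43 on the log2 scale, and between -0.05 and 0.04 for the other 4. With the GC correction the value of CD74 was -0.19. No relation passed the threshold between the level of a member in a pig's ileum and the level in its liver. After the diet mean was subtracted, Pearson's r over the 10 pigs was 0.24 for TAP2, 0.23 for CD74, 0.00 for TAP1, -0.24 for SLA-DRA and -0.36 for CIITA, with exact permutation p-values from 0.316 to 0.993 (0.999 for each when adjusted over 13058 genes). Spearman's rho lay between -0.42 and 0.20 (exact permutation p-values from 0.261 to 0.949, adjusted p = 1). Over all genes the median r was 0.12, and 0.0% were called. Without the 2 pigs farthest from the median, r was 0.62 for TAP2, -0.04 for CD74, 0.20 for TAP1, -0.66 for SLA-DRA and -0.56 for CIITA. The exact permutation p-values, unadjusted, were then from 0.149 to 0.934. The 2 pigs left out differed between the genes and were chosen by the gene's own ileum level.

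CD74 varied more from pig to pig than the other members in both tissues, by 3.85 times between the lowest and highest ileum library and 6.04 times in the liver, against 1.53 and 3.94 times for SLA-DRA. With diet means subtracted, the 5 genes with the highest Pearson's r over the 10 ileum libraries were SLCO4A1, CTSD, WDR81, GTPBP3 and GMEB2, with r from 0.991 to 0.995. In the 23 liver libraries they were DOK2, PLD4, PFKP, FERMT3 and CYBA, with r from 0.919 to 0.935. For CIITA they were AP1G2, QSOX2, RRP1B, GCN1 and RCC2 in the ileum (0.963 to 0.966) and ELF4, IKBKB, ZNF414, FES and IRF5 in the liver (0.836 to 0.872). SLA-DRA was not among them: its r with CD74 was 0.36 in the ileum and 0.28 in the liver, whereas CIITA and CD74 had r of 0.86 and 0.67. These values are descriptions, over libraries that differ in depth and base composition.

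The level of CD74 moved with the base composition of the libraries. For each library the slope of log2 CPM, relative to the mean of its tissue, against the GC content of the exons was taken over the genes with a GC value, which are 79.3% of the genes tested in the ileum and 79.7% in the liver. The slope ranged from -0.37 to 0.37 log2 units per 10 percentage points of GC in the ileum (PFA pigs 138 and 134) and from -0.47 to 0.49 in the liver (PFA pig 95 and OO + PFA pig 79). CD74 has the highest GC content of the members, 64.9%, against 58.7% for TAP1, 57.6% for CIITA, 55.9% for TAP2 and 48.2% for SLA-DRA. The slope is the trend over all genes with a GC value, so a gene of high GC content is prone to follow it. How many other genes follow it as closely was not counted. The p-values below therefore do not set a member apart from genes of like GC content.

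With diet means subtracted, CD74 followed the slope in both tissues. In the ileum Pearson's r was 0.96 (permutation p = 0.00029, adjusted p = 0.00145 over the 10 relations of 5 genes and 2 tissues) and Spearman's rho 0.94 (permutation p = 0.00066, adjusted p = 0.0033), and leaving out the pair of libraries most distant from the median slope gave r of 0.94. In the liver r was 0.83 (permutation p = 5e-05, adjusted p = 0.0005), rho 0.84 (permutation p = 3e-05, adjusted p = 0.0003) and r without such a pair of libraries 0.80. CIITA had r of 0.79 in the ileum (permutation p = 0.00792, adjusted p = 0.0254) and 0.54 in the liver (permutation p = 0.0101, adjusted p = 0.0254), with rho of 0.77 and 0.49 (adjusted permutation p = 0.0455 and 0.0624), and leaving out such a pair gave r of 0.65 in the ileum and 0.36 in the liver. TAP2 had r of 0.73 in the ileum (permutation p = 0.019, adjusted p = 0.0379), with rho of 0.65 (adjusted permutation p = 0.0982), and 0.30 in the liver. For SLA-DRA r was 0.18 and -0.13, and for TAP1 0.46 and 0.27, with adjusted permutation p-values from 0.381 to 0.631. PFA pig 134, the highest for CD74 in the ileum, had the steepest slope there, and OO pig 99 had a slope of 0.30 in the liver.

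A correction for GC content was chosen after the data were seen. With it, the log2 difference of CD74 between OO and Control livers went from 0.80 to 0.36, that between OO + PFA and Control from 0.63 to -0.17, and that between PFA and Control in the ileum from -0.19 to 0.05, none called before or after. Between ileum and liver the difference of CD74 went from 0.08 to 0.58, and it was then called (adjusted p = 0.00101). TAP2 kept its difference between OO and Control (0.57) and was called with the correction (adjusted p = 0.0308), and PSMB8, PSMB9, PSMB10, CTSB and RFX5 were called in this comparison with it as well. The slope was positive in every OO + PFA liver kept, from 0.041 to 0.49. It ranged from -0.20 to 0.083 in Control livers, from -0.47 to 0.067 in PFA livers and from -0.38 to 0.42 in OO livers. The correction can therefore also remove part of a diet difference, and how much was not tested. Whether the slope comes from the preparation of the libraries or from the tissue was not tested.

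**Figure D5:**
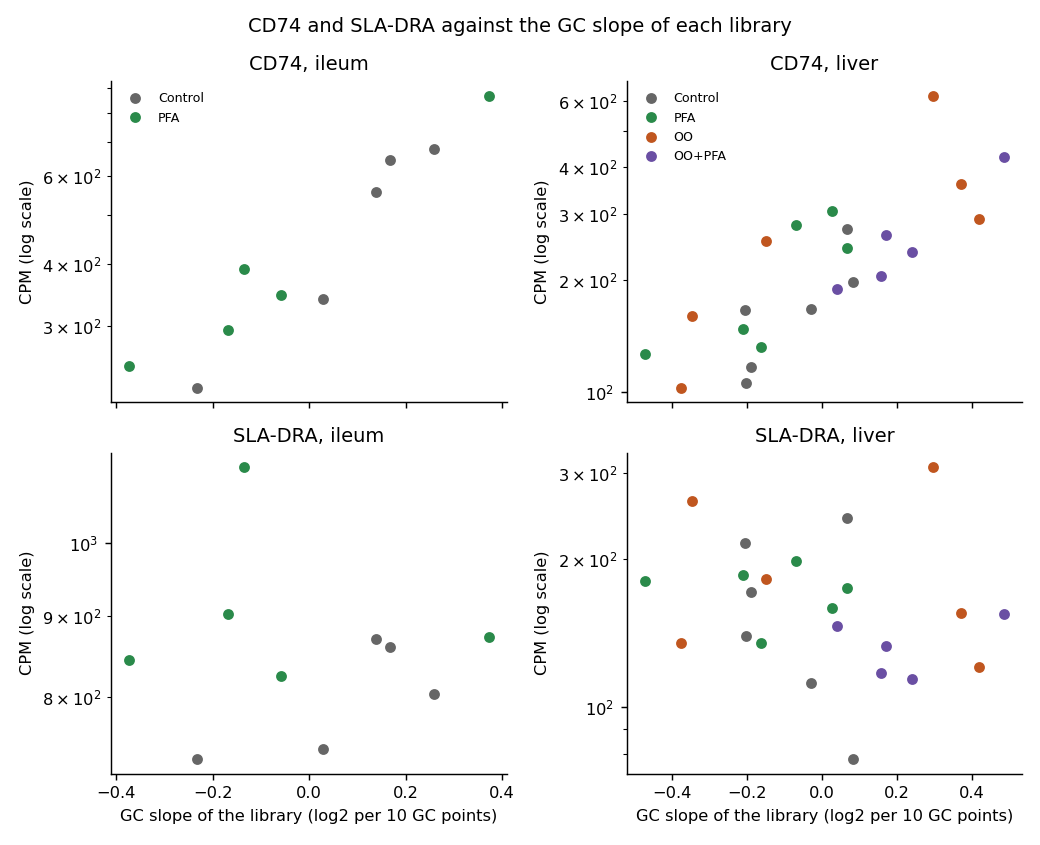
CPM of CD74 (upper row) and SLA-DRA (lower row) on a log scale against the GC slope of each library in log2 units per 10 percentage points, in 10 ileum and 23 liver libraries, with a point for each pig coloured by diet. CD74 rises with the slope in both tissues (r of 0.96 and 0.83), and SLA-DRA shows no such relation (r of 0.18 and -0.13).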

How the data were processed

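RNA-seq counts of 34 libraries were used, 10 from ileum and 24 from liver. Stranded poly(A) libraries were made. The authors deposited the counts as whole read pairs per Ensembl gene, without normalization: reads were aligned with STAR 2.6.1d to Sscrofa11.1 and counted with HTSeq. Rows that name no gene were kept out of the library sizes and come to between 13.5 and 36.7% of each library's total. Symbols came from a table of gene names (14857 of 25880 genes), and positions, GC content and upstream sequences from RefSeq's annotation of Sscrofa11.1.

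Counts were scaled by TMM, filtered with filterByExpr and tested with edgeR 4.0.16 in R 4.3.3 (glmQLFit and glmQLFTest, two-sided, Benjamini-Hochberg over all genes tested, threshold 0.05). The liver fit held 23 libraries in 4 diets, and ileum and liver were compared in 20 libraries with the pig as a block, since the pig number in the titles names the same animal. The correlation of a pig's deviations between its 2 tissues was over 0.1 in 8 of 10 pigs (median 0.148, range -0.244 to 0.533). Between different pigs of a diet it ranged from -0.524 to 0.426. Among the pigs of its diet, the ileum was most alike its own liver in 6 of 10 pigs. Sequences and tables were read in Python 3.11.15 with pysam 0.24.0. Each fit was tested on simulated counts. Pig to pig correlations used all 14400 orders of pigs within diets, and relations to GC content 100000 permutations. Intervals assume a normal error of the log2 difference.

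Alternatives were DESeq2 1.42.0, RLE scaling, other filters, all 24 livers, the form of the title as a term or alone, the 2 diets alone, no pig block and leaving out each pig. The GC correction (lowess per library, span 0.5) was added after the data were seen, and GC content was known for under 80% of genes, so counts over all genes with it are void. The genes named were the members, the pathway genes called in a comparison or among its 5 smallest p-values, and the 5 genes most like CD74 and CIITA; further genes were named where a group of genes was listed in full. The likeness to B2M could not be given. Members and lists were chosen with earlier results of these data known. Of the pathway lists, the class I chains had 0 of 11 genes matched and is not reported. One result among the pathway genes is not reported here.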

Additional observations from a re-analysis of the deposited data

Results flagged for a closer look

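In a group of 4 to 10 pigs, the highest or lowest pig stood far from the others in 3 of the 30 groups of a member and a diet tested, and chance flags about 1 in 20 groups. CD74 was at 868 CPM in the ileum of PFA pig 134, with 249 to 390 CPM in the other 4 PFA pigs. SLA-DRA was at 1117 CPM in the ileum of PFA pig 107, with 826 to 902 in the other 4. CIITA was at 15.75 CPM in the liver of OO pig 99, with 7.06 to 10.2 in the other 5 OO pigs.

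The OO + PFA liver of pig 77, which the comparisons leave out, was above every Control liver for 3 members: CD74 at 1041 CPM (Control livers 106 to 274), CIITA at 12.7 CPM (Control livers 6.53 to 11.98) and TAP2 at 21.9 CPM (Control livers 13.8 to 19.5). In this library SLA-DRA was at 148 CPM and TAP1 at 19.2 CPM, both within the Control range. The values of pig 77 were scaled over all 24 livers, and the Control ranges over the 23 livers kept. The library also had 36.6 read pairs with several alignments per 100 counted on genes, against 3.02 to 14.7 in the other livers, and the part of this in the values was not tested.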

How the results depend on the processing

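The 4 members called between ileum and liver kept their call under the alternatives run, and CD74 gained one there with the GC correction. The members called went from 0 to 1, TAP2 in each case, across the 4 diets with DESeq2 (1) and with all 24 livers (1), and for OO against Control with DESeq2 (1) and the GC correction (1); with 1 pig left out they ranged from 0 to 1 in both comparisons and stayed at 4 between ileum and liver. The other pathway genes called, 5 across the 4 diets, were 2 in the PigLiv libraries alone and 5 to 8 with 1 pig left out. For OO against Control they went from 5 to 0 (PL), 1 (PigLiv), 2 (all 24 livers) and 2 (the 2 diets alone). In that comparison they were 3 with no filter and 2 to 7 with 1 pig left out. For OO + PFA against Control they went from 1 to 2 (DESeq2), 3 (GC correction) and 3 (the 2 diets alone). With 1 pig left out they were 1 to 2 there. In these PL and PigLiv fits fewer pigs were compared. The PL libraries kept held a single OO + PFA pig. PL counts across the 4 diets and for OO + PFA against Control are therefore not given.

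The pairing of ileum and liver was kept as a block. Without the block 4 members were called between ileum and liver as before, TAP2 differed by 2.13 and CD74 by 0.13, and it changed no other call. The PFA difference between the tissues, uncalled, was 0.087 for SLA-DRA and -0.022 for CIITA without the block. For SLA-DRA it was 0.013 with at least 10 counts in every library and 0.00036 with no filter.

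The following log2 differences, all uncalled, took the other sign, and the cause was not tested. In the PL libraries TAP1 differed by 0.14 for PFA against Control and CIITA by -0.046 for OO against Control. The PL libraries kept held a single OO + PFA pig, so PL values of OO + PFA rest on that pig alone. In these libraries SLA-DRA differed by 0.23, TAP1 by 0.036 and TAP2 by -0.42 for OO + PFA against Control. CD74 differed there by 0.018 for OO + PFA against OO. In the PigLiv libraries SLA-DRA differed by -0.22 for PFA against Control and CIITA by -0.19 for OO + PFA against OO, with an interaction of -0.10. With pig 77, CD74 differed by 0.41 for OO + PFA against OO, with an interaction of 0.14. With the GC correction CD74 differed by 0.055 for PFA in the ileum and by -0.17 for OO + PFA against Control, and TAP2 by 0.022 for PFA in the liver. The correlation of ileum and liver was 0.012 for TAP1 with RLE scaling, and 0.20 for TAP1 and -0.037 for CD74 without the 2 farthest pigs.

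With 1 pig left out, the range crossed 0 for PFA in the liver in SLA-DRA (-0.034 to 0.27) and CIITA (-0.24 to 0.011), for PFA in the ileum in TAP2 (-0.19 to 0.044) and CIITA (-0.26 to 0.17), for OO + PFA against OO in CD74 (-0.41 to 0.18) and CIITA (-0.066 to 0.31), for OO against Control in CIITA (-0.035 to 0.26), for ileum against liver in CD74 (-0.017 to 0.25), and for the PFA difference between tissues in SLA-DRA (-0.20 to 0.26), TAP1 (-0.090 to 0.22), TAP2 (-0.19 to 0.12) and CIITA (-0.22 to 0.31). CIITA had the lowest count of the members, 88 in a liver library.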
